A study of Mus musculus with 18 samples.

Results

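The 39 Hox genes of the mouse genome, the homeobox genes that set position along the body axis, were followed through DNA methylation in embryonic stem (ES) cells that carry wild-type or mutant DNMT1. They were taken by symbol, as every protein-coding GENCODE gene named Hoxa, Hoxb, Hoxc or Hoxd plus a number, out of 21938 annotated protein-coding genes, of which 17820 could be tested. The members were 11 Hoxa genes on chromosome 6, 10 Hoxb genes on chromosome 11, 9 Hoxc genes on chromosome 15 and 9 Hoxd genes on chromosome 2 (GRCm38). Each gene was measured over its body and 2 kb on either side, as the share of reads that were methylated, summed over those CpGs that had 5 or more reads in each of the libraries. Neighbouring genes overlap, so 562 of the 2416 usable CpGs (23.3%) lay in more than 1 window, and the members are not independent of each other.

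Every line in the study was a mouse ES cell line in which Dnmt1, the enzyme that copies CpG methylation onto the new strand after replication, had been knocked out. The cells were then given a DNMT1 from the vector pPyCAGIP, kept under puromycin at 1 µg/mL and grown in serum with leukemia inhibitory factor. The 6 groups of 3 libraries differ in that DNMT1: WT, the single mutants W796A and W465A, the double mutants W465A/W796A and W464A/W465A, and the triple mutant W464A/W465A/W796A. W464A and W465A replace neighbouring tryptophans in the replication foci targeting domain, and W796A replaces a tryptophan in a bromo-adjacent homology domain, both outside the catalytic domain. Several stable lines were made per group; the labels do not say if the 3 libraries of a group came from separate lines, so p-values measure the spread between these libraries. The amount of DNMT1 in each line was not analysed here, and methylation data alone do not check the labelled cell type.

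Hox genes are kept silent in ES cells mainly by Polycomb complexes, which place repressive histone marks over long CpG-rich domains that carry little DNA methylation. The order of the genes along a cluster matches the order in which they act along the body, from the hindbrain (paralogue groups with low numbers) to the trunk, limbs and tail (high numbers). Methylation inside the clusters lies mostly outside CpG islands, in introns, intergenic stretches and some alternative promoters.

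The assay was enhanced reduced representation bisulfite sequencing (eRRBS), in which genomic DNA is cut at short restriction sites, converted with bisulfite and sequenced. The libraries held 59776439 to 138978763 CpG calls, with a median of 12 to 29 reads at the 1424423 CpGs usable in all libraries. Over the Hox windows the number of reads per library was 38508 to 99999. WT replicate 1 and W796A replicate 1 stood low over all usable CpGs (32.0% and 28.2% of reads, against 40.5% to 41.7% in the other libraries of these groups), and W465A replicate 1 stood high (19.5%, against 13.6% and 14.01%). Bisulfite conversion was not analysed here, so for levels near 1% the part of unconverted cytosine was not tested.

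Sequences are shown for the places where the results below turn. The first set is of 1 kb tiles that were highly methylated in WT: a Hoxa3 intron (chr6:52185392-52185480, which also overlaps an exon of Gm29430), a Hoxb3 intron (chr11:96329060-96329183), an intron shared by Hoxd3 and Hoxd4 (chr2:74718900-74718969) and a stretch between Hoxd9 and Hoxd8 that lies nearer to Hoxd9 and whose CpGs are in the Hoxd9 window (chr2:74702133-74702214). All are plus-strand GRCm38 sequence, printed from 10 bases before the first usable CpG to 10 bases after the last, with the usable CpGs in capitals.
Hoxa3 intron: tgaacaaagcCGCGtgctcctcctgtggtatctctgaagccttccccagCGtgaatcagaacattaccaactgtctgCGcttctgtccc
Hoxb3 intron: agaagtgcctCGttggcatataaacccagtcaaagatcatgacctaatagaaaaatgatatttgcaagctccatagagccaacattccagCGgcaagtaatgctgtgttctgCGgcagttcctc
Hoxd3 and Hoxd4 intron: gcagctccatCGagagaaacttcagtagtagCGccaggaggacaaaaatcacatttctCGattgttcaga
Hoxd9 flank: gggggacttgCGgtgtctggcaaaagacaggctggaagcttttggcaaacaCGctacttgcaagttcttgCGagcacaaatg
The last is the opposite kind of sequence, the 250 bases before the RefSeq start of Hoxa5 (GRCm38.p6, chr6:52204588-52204837, minus strand), in which 25 of the 28 CpGs were usable and 1.44% of WT reads were methylated.
Hoxa5 promoter: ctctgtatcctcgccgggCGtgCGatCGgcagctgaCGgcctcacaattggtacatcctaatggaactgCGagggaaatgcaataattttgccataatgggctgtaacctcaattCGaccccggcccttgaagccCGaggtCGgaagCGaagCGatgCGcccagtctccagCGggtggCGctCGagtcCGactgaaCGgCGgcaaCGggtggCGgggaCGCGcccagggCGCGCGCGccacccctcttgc
The tile sequences hold 3 or 4 CpGs in 70 to 124 bases, whereas the promoter holds its CpGs in dense runs. Within the clusters the WT level was higher at sparse CpGs, which were few, than at dense ones. The 39 Hox CpGs with 1 to 5 CpGs within 250 bp had 57.3% ± 16.9 SD in WT. The 1914 with over 20 had 4.38% ± 1.46.

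In WT cells the Hox windows were mostly unmethylated. The level over all Hox windows was 5.74%, 9.60% and 10.3% in the 3 WT libraries (mean 8.56% ± 2.46 SD, n = 3), against 37.7% ± 4.999 over all usable CpGs. Of the Hox CpGs, 60.4% were below 5% in WT and 4.51% were at 60% or above; over all usable CpGs these shares were 31.2% and 54.4%. The clusters lay close together, with Hoxa at 10.6% ± 2.97, Hoxc at 8.84% ± 2.35, Hoxb at 8.12% ± 2.82 and Hoxd at 7.15% ± 1.88, and their libraries overlapped. By gene, 13 of the 39 were below 5%, 22 between 5% and 20%, and 4 at 20% or above.

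The 4 highest genes were Hoxc4, Hoxd12, Hoxa7 and Hoxb13, each the highest of its cluster. Hoxc4 (chr15:103018934-103036852, plus strand, 37 CpGs), a group 4 gene that acts in the neck and upper trunk, had 25.3%, 36.5% and 40.0% in WT. Hoxd12 (chr2:74675013-74677705, plus strand, 46 CpGs), which patterns the distal limb, had 20.8%, 40.2% and 33.8%. Hoxa7 (chr6:52214491-52221854, minus strand, 115 CpGs), a trunk gene, had 17.5%, 24.4% and 29.4%. Replicate 1 was the lowest WT library in all of these genes. Hoxb13 (chr11:96194316-96197447, plus strand, 26 CpGs), which acts in the tail bud and prostate and lies apart from the rest of its cluster, had 15.0%, 29.5% and 22.04%.

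The lowest gene of each cluster was near the floor of the measurement. Hoxa4 (chr6:52189671-52191753, minus strand, 46 CpGs), which lies inside the Hoxa3 transcript, had 1.22%, 1.75% and 0.843% in WT. Hoxd1 (chr2:74762980-74765142, plus strand, 63 CpGs), the group 1 gene at the 3′ end of its cluster, had 0.538%, 1.80% and 1.84%. Hoxc13 (chr15:102921103-102928814, plus strand, 44 CpGs), needed for hair and nails, had 1.62%, 2.77% and 1.26%. Hoxb8 (chr11:96281905-96285315, plus strand, 47 CpGs), a trunk gene, had 1.01%, 2.56% and 2.46%. Their WT libraries did not overlap with those of the highest gene of the same cluster.

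**Figure D1:**
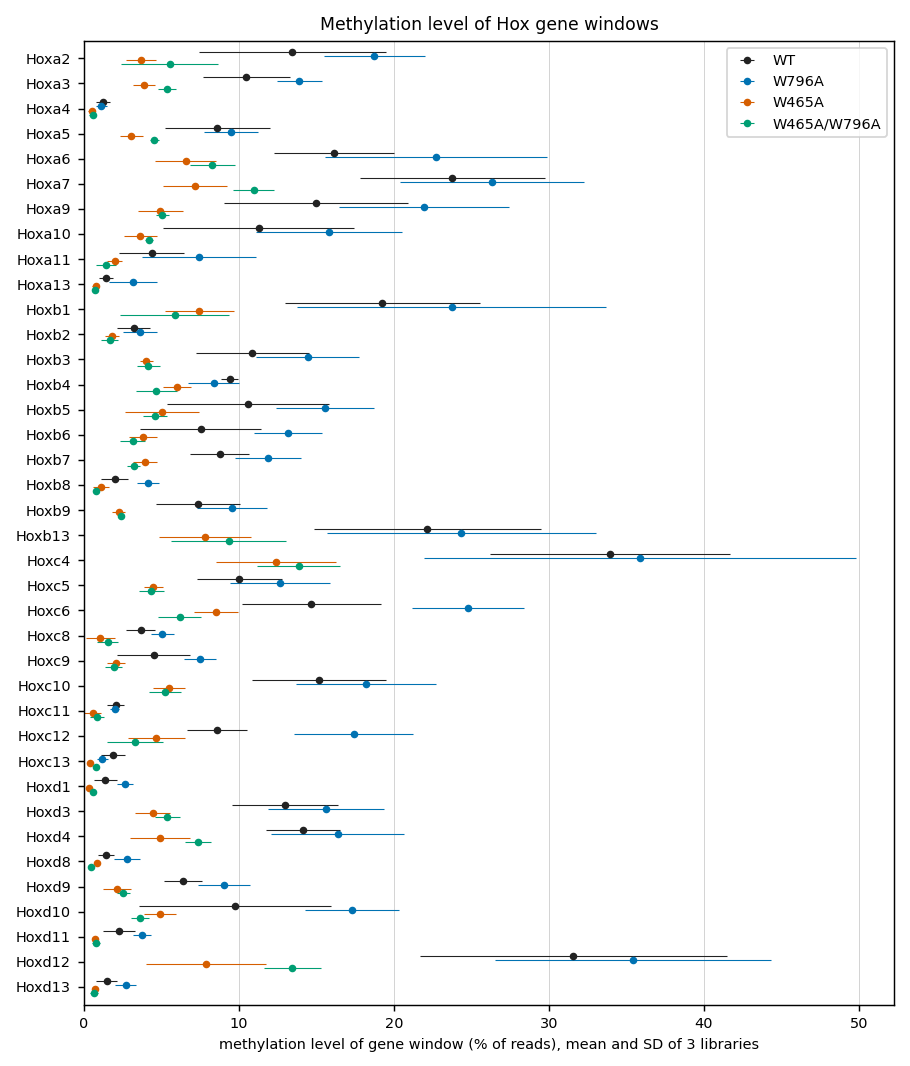
Methylation level of the Hox gene windows (x axis, percent of reads methylated) by gene (y axis, in cluster order), as the mean (point) and SD (bar) of 3 libraries for WT, W796A, W465A and W465A/W796A. W465A and W465A/W796A lie side by side and below WT for all genes drawn, from Hoxa4 at 1.27% in WT to Hoxc4 at 33.9%.

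W465A cells had lower methylation across the Hox clusters. With W465A the level over all Hox windows was 3.61%, 2.91% and 2.78% (mean 3.10% ± 0.449), which is 36.2% of the WT mean, and no W465A library reached the lowest WT library. By gene, 34 of the 39 were called lower than WT at an adjusted p under 0.05, and 0 were called higher. Among all 17820 genes 93.8% were called lower, so this count was near the background. The 5 Hox genes without a call were Hoxa4, Hoxa13, Hoxb8, Hoxd8 and Hoxd13, whose WT means were all between 1.27% and 2.01%.

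The largest Hox differences were in the genes that were high in WT. Hoxd12 fell from 31.6% in WT to 11.8%, 4.12% and 7.71% in W465A (difference -23.7 percentage points, SE 6.14, adjusted p = 5.98e-05). Hoxc4 fell to 15.8%, 8.16% and 13.3% (difference -21.5 points, SE 4.99, adjusted p = 0.000869). Hoxa7 fell to 8.72%, 4.86% and 8.05% (difference -16.6 points, SE 3.66, adjusted p = 3.63e-05). In each of these genes every W465A library was below every WT library. When a difference of at least 10 points was also required, 8 of the 39 were called, against 71.5% of all genes. Here and below this minimum was applied to levels from the reads pooled over the libraries of a group, which weights deeper libraries more. The differences printed for single genes are between means of library levels. Counts with this minimum also depend on the WT level. In WT 13 Hox genes lay at up to 5% and 9 at 5 to 10%, with little or no room to fall by 10 points. Other genes had a median WT level of 31.9%, so the shares of all genes are not like for like. Without WT replicate 2 the count without the 10-point minimum was 21 rather than 34. The share of all genes in that refit is not printed here. The drop therefore does not tell Hox genes apart from the rest.

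The lowest levels were in the mutants that carry both W464A and W465A. W464A/W465A had 1.86%, 2.66% and 2.16% over all Hox windows (mean 2.23% ± 0.403, 26.0% of WT), and W464A/W465A/W796A had 2.50%, 2.70% and 2.29% (mean 2.50% ± 0.205, 29.2% of WT). Against WT, 36 of the 39 Hox genes were called lower in W464A/W465A (94.8% of all genes) and 37 in the triple mutant (95.4% of all genes). By at least 10 points, 11 and 10 were called lower (74.6% and 74.9% of all genes). Hoxa4 and Hoxd13, the posterior limb gene, were called in neither, and Hoxd8 was not called in W464A/W465A.

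Hoxd12 again moved most in W464A/W465A, to 3.42%, 7.08% and 4.25% (difference -26.7 points, SE 5.83, adjusted p = 9.76e-06). Hoxc4 in the triple mutant was at 11.9%, 8.66% and 10.3% (difference -23.7 points, SE 4.55, adjusted p = 0.000399). Hoxa7 was at 4.02%, 5.20% and 5.19% in W464A/W465A (difference -19.0 points, SE 3.48, adjusted p = 3.77e-06) and at 5.38%, 5.83% and 6.21% in the triple mutant (difference -17.97 points, SE 3.46, adjusted p = 4.05e-06). All mutant libraries of these genes lay below all WT libraries. The other named genes of these contrasts were Hoxc4 in W464A/W465A (6.29%, 15.5% and 8.76%, difference -23.8 points, adjusted p = 0.000297) and Hoxd12 in the triple mutant (8.995%, 8.44% and 9.14%, difference -22.7 points, adjusted p = 4.15e-05).

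**Figure D2:**
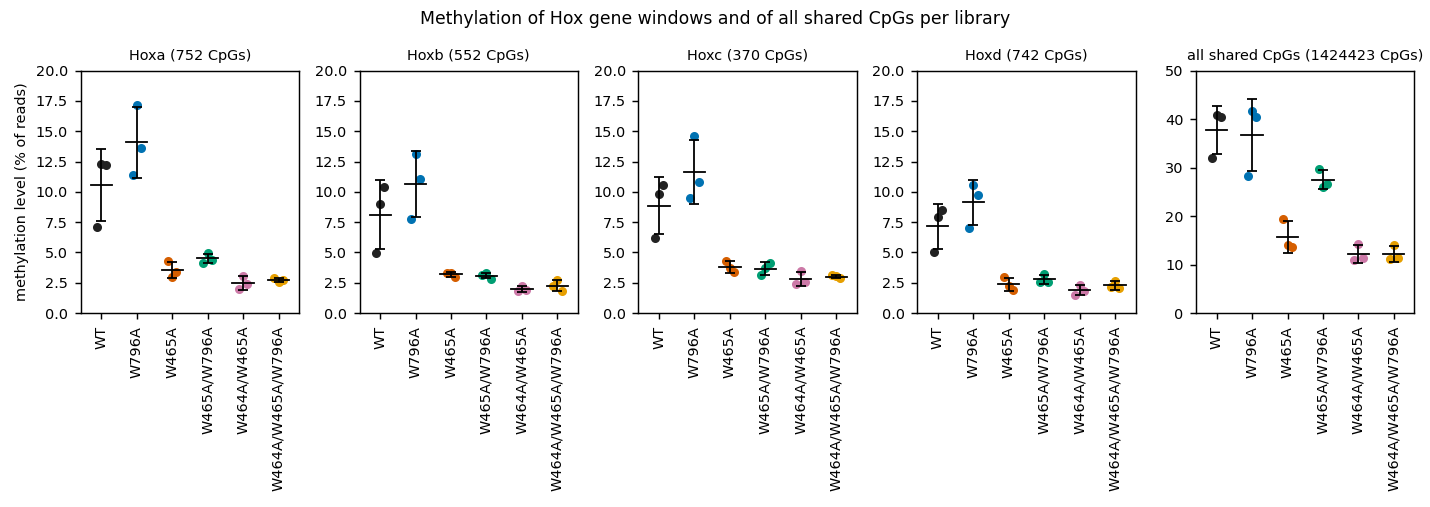
Methylation level (y axis, percent of reads) of each library (points) by group, for the 4 Hox clusters and for all usable CpGs (right, with its own y axis); bars are the mean and SD of 3 libraries. W465A/W796A lies beside W465A in each Hox cluster, whereas over all usable CpGs it lies at 27.5%, between W465A at 15.7% and WT at 37.7%.

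In W465A/W796A, the double mutant that adds W796A to W465A, the Hox windows kept less of their WT level than the genome as a whole. Over all usable CpGs this double mutant had 27.5% ± 1.96, or 72.8% of WT, well above W465A (15.7% ± 3.26 SD, 41.6% of WT). Over the Hox windows it had 3.22%, 3.77% and 3.32% (mean 3.44% ± 0.294, 40.2% of WT), close to W465A at 3.10% ± 0.449. The libraries of the groups overlapped in the Hox windows and did not overlap over all usable CpGs. By cluster, the double mutant kept 42.6% of WT in Hoxa, 37.9% in Hoxb, 41.5% in Hoxc and 39.1% in Hoxd, and W465A kept 33.6%, 39.3%, 43.0% and 33.1%.

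The same held gene by gene. In W465A/W796A the 39 Hox genes kept at most 52.9% (Hoxa5) of their WT level, with a median of 41.8%, whereas other genes had a median of 72.5%. All 39 lay below the median of the other genes, and 7.22% of other genes lay at or below the highest Hox gene. In W465A the medians were near each other, 36.9% for Hox genes and 40.8% for other genes. The median ratio of W465A/W796A to W465A was 103% for Hox genes and 176% for other genes. All 39 stayed below the other-gene median when any library of WT or W465A/W796A was left out, with Hox medians of 35.4% to 45.7% and other-gene medians of 67.3% to 76.2%. With at least 10 reads per CpG in every library, 33 of 37 Hox genes did so.

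The gap between Hox and other genes was present in each WT class up to 40% and at each CpG density. No Hox gene lay above 40% in WT, where 7289 of the 17747 other genes lay. Among genes with a WT level up to 5%, Hox genes kept a median of 42.5% in W465A/W796A and other genes 68.1%. For WT levels of 5 to 10%, 10 to 20% and 20 to 40%, the Hox medians were 38.6%, 41.6% and 42.4%, and those of other genes 69.3%, 71.7% and 73.3%. Split by density, the 1914 Hox CpGs with over 20 CpGs within 250 bp kept 37.5% and other CpGs of that density kept 71.6%. Hox CpGs with 11 to 20 CpGs within 250 bp kept 39.7% against 74.3%, those with 6 to 10 kept 43.3% against 73.6%, and the 39 Hox CpGs with 1 to 5 kept 51.0% against 70.1%.

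**Figure D3:**
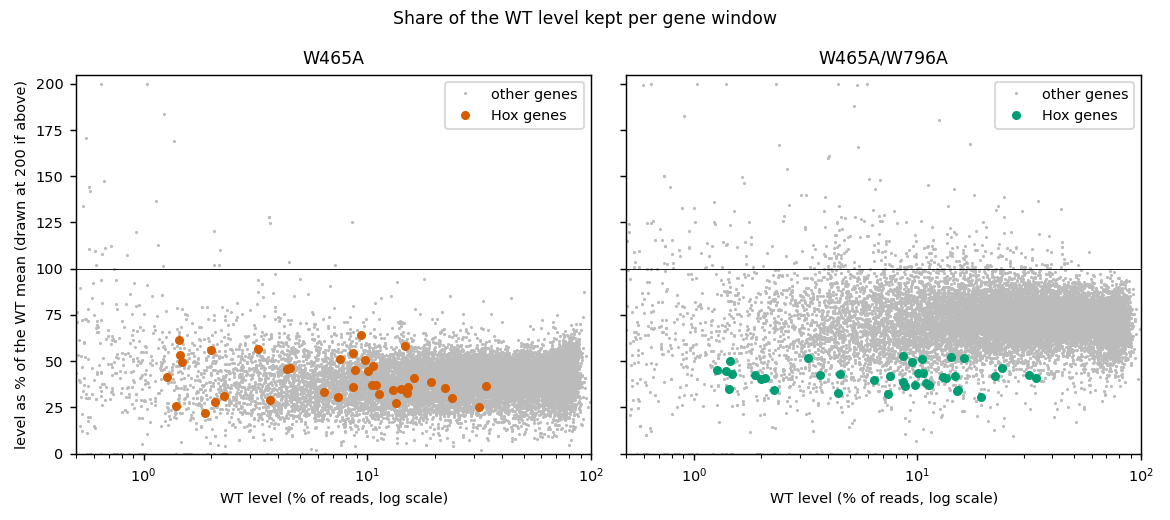
Level of each gene window in W465A (left) and W465A/W796A (right) as a percentage of its WT mean (y axis, linear, drawn at 200 if above) against the WT level (x axis, percent of reads, log scale from 0.5), for the Hox genes (colour) and the other genes (grey). The Hox genes lie within the cloud of other genes in W465A and below most of it in W465A/W796A, where none exceeds 52.9%.

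The direct comparison of the double mutant with W465A, which asks what W796A adds in the W465A background, gave no call among the Hox gene windows. Of the 166 Hox tiles described below, 2 were called higher (26.8% of all tiles). None of the 39 genes was called, while 61.6% of all genes were called higher and 0.00561% lower. In the quasi-binomial model 0 Hox genes had an unadjusted p under 0.05, against 12388 of all 17820 genes. limma also called 0, and edgeR called 1, Hoxd12, named here after its values were seen. In means, 21 of the 39 were higher in the double mutant (16 to 24 with any library left out), against 97.3% of all genes. In 5 genes, Hoxa3, Hoxa5, Hoxa7, Hoxc13 and Hoxd1, all double-mutant libraries were above all W465A libraries, against 76.2% of all genes. The background of this comparison rested on single libraries: without W465A replicate 3 or W465A/W796A replicate 1, 0 of all genes were called. Without W465A replicate 1 a single Hox gene, Hoxd4, was called. Hoxd8 went the other way, with 0.709%, 0.377% and 0.426% in the double mutant and 0.874%, 0.767% and 1.03% in W465A.

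Single genes show the range. Hoxa7 was at 10.5%, 12.5% and 9.91% in W465A/W796A, all above its W465A libraries, but the difference of 3.76 points (SE 1.42) was not called (adjusted p = 0.149). Hoxd12, at 11.4%, 14.9% and 14.1%, overlapped with its highest W465A library of 11.8%, and its difference of 5.57 points (SE 2.46) was not called either (adjusted p = 0.171). Hoxc13, at 1.00%, 0.652% and 0.753%, and Hoxd1, at 0.848%, 0.483% and 0.535%, stood apart from W465A by less than 1 point.

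Against WT, 32 of the 39 Hox genes were called lower in W465A/W796A, as were 40% of all genes. The median difference over all genes, called or not, was -8.27 points. By at least 10 points, 6 were called lower, against 30.3% of all genes. Hoxc4 was at 10.8%, 15.8% and 15.0% (difference -20.1 points, SE 4.71, adjusted p = 0.023), and Hoxd12 differed from WT by -18.1 points (SE 5.82, adjusted p = 0.023). Hoxb1, a hindbrain gene with 12.1%, 21.8% and 23.9% in WT, was at 4.97%, 9.75% and 2.88% (difference -13.4 points, SE 4.16, adjusted p = 0.023). The libraries of these genes did not overlap with WT. Hoxa4, Hoxa13, Hoxb2, Hoxc8, Hoxc11, Hoxd1 and Hoxd13 were not called, although all 39 means were below WT. The smallest adjusted p-value among the 39 was 0.0214, and the calls rested on all libraries: leaving out WT replicate 2, WT replicate 3, W465A/W796A replicate 2 or W465A/W796A replicate 3 left 0 of the 39 called and at most 3 of all genes. limma called 18 and edgeR 32 of the 39 Hox genes. The shares of all genes with these tools are not printed here, so these counts are not set against a background.

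When each library's level over all usable CpGs was entered as an offset, the model tested change relative to the genome. Relative to it, 7 Hox genes were called lower in W465A/W796A than in WT and 0 higher (3.11% and 0.629% of all genes). The 7 were Hoxa7, Hoxa9, Hoxb3, Hoxb9, Hoxc10, Hoxd3 and Hoxd12. Hoxa9, a gene of the posterior trunk that is also active in blood progenitors, had 5.46%, 5.11% and 4.63% in W465A/W796A and 8.60%, 16.0% and 20.3% in WT (adjusted p = 0.0282 with the offset). Hoxb9, its paralogue, had 2.45%, 2.28% and 2.44% against 4.48%, 7.79% and 9.85% (adjusted p = 0.0126 with the offset). In W465A against WT the offset left 1 Hox gene called lower, Hoxd12, and 1 higher, Hoxb2 (17.1% and 3.76% of all genes). This offset test of the double mutant against W465A called 0 of the 39 and 0 of all genes.

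In W796A alone most Hox genes were above WT in means, but no single gene passed the test. Over all Hox windows W796A had 8.78%, 13.6% and 11.4% (mean 11.3% ± 2.42, 131% of WT), and over all usable CpGs 36.8% ± 7.45 (97.5% of WT). The means of 34 of the 39 Hox genes were above WT, against 47.4% of all genes; the exceptions included Hoxa4, Hoxb4, Hoxc11 and Hoxc13. This count was 28 to 36 with any library left out, against 22.9% to 80.8% of all genes. In the quasi-binomial model 0 of the 39 were called, and 0.00561% of all genes were called higher. An unadjusted p under 0.05 was found in 13 Hox genes, against 768 of all 17820 genes. limma and edgeR called 0 Hox genes as well, with 9 and 13 at an unadjusted p under 0.05. The counts of all genes at that threshold with these tools are not printed here.

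Replicate 1 of both groups was low over all usable CpGs, and same-numbered WT and W796A libraries deviated together. Within each of these 3 pairs W796A was above WT over all Hox windows and in every cluster. By gene, 25 of the 39 were above WT in every pair, against 13% of all genes, and 1, Hoxc13, was below in every pair, against 12.5%. A block for the pairs called 0 Hox genes, and its share of all genes is not printed here. Unpaired, single libraries overlapped in most Hox genes. In 7 genes all W796A libraries were above all WT libraries (1.16% of all genes): Hoxa13, Hoxb8, Hoxc6, Hoxc8, Hoxc12, Hoxd1 and Hoxd10. Hoxc12, a posterior gene with 65 CpGs, was at 13.4%, 21.04% and 17.9% in W796A and 6.42%, 9.45% and 9.99% in WT, and its adjusted p-value was 0.441. Without W796A replicate 1 it was the only Hox gene called, and the share of all genes in that refit is not printed here. Hoxb8 was at 3.36%, 4.78% and 4.34% in W796A, and Hoxa13, which acts in digits and the genital tract, was at 2.37%, 4.96% and 2.16% with 0.944%, 1.70% and 1.70% in WT. Relative to each library's genome-wide level, 8 Hox genes were called higher in W796A than in WT and 0 lower (1.40% and 0.23% of all genes). The 8 were Hoxa9, Hoxb3, Hoxb6, Hoxb8, Hoxb9, Hoxc6, Hoxc12 and Hoxd11.

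WT, W796A, W465A and W465A/W796A form a factorial, in which the effect of W796A can be compared between the W465A and the WT background. The quasi-binomial model tested this departure from additivity in log odds (the log of methylated over unmethylated reads). Its direction was read from pooled percentages. The departure was called lower for 1 Hox gene, Hoxc6, and higher for none. An unadjusted p under 0.05 was found in 4 Hox genes, against 9530 of all 17820 genes. Among all genes 0.0561% were called lower and 36.2% higher. Hoxc6 (chr15:102998257-103011881, plus strand, 31 CpGs), a thoracic gene whose body lies inside the longer Hoxc5 transcript, had 9.49%, 17.1% and 17.4% in WT and 22.9%, 28.9% and 22.6% in W796A. It had 8.94%, 9.66% and 6.93% in W465A and 5.86%, 4.98% and 7.73% in W465A/W796A. W796A thus stood 10.1 points above WT and the double mutant 2.32 points below W465A in means, a departure of -12.4 points (SE 3.51). The adjusted p = 0.0391 of the quasi-binomial model belongs to the departure in log odds. The departure in points was not tested. The call was lost with limma, with edgeR (which called Hoxc12 and Hoxd8), with flanks of 5 kb and when only these 4 groups were fitted. With a minimum of 10 reads per CpG the Hoxc6 window had too few CpGs to be tested. The call was also lost without WT replicate 2, any single W465A library, W465A/W796A replicate 1 or 2, or W464A/W465A replicate 3.

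With the genome-wide offset the departure was called lower in 13 of the 39 Hox genes and higher in 0, against 0.887% and 0.488% of all genes. The 13 were Hoxa9, Hoxb3, Hoxb6, Hoxb7, Hoxb8, Hoxb9, Hoxc5, Hoxc6, Hoxc9, Hoxc12, Hoxd3, Hoxd8 and Hoxd10, so that all clusters were represented and 5 of them were Hoxb genes. Some share CpGs, as Hoxc5 does with Hoxc6 and Hoxc9. Hoxb8 had means of 2.01% in WT, 4.16% in W796A, 1.13% in W465A and 0.810% in W465A/W796A (adjusted p = 0.0293 with the offset, 0.112 without). Hoxc12 had 8.62%, 17.4%, 4.67% and 3.32% in the same order (adjusted p = 0.0105 with the offset, 0.051 without).

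Few Hox genes were called lower once W464A was added to W465A/W796A. The triple mutant was called lower than the double mutant in 5 of the 39, against 84.2% of all genes, and higher in 0. In 11 of the 39 every triple-mutant library was below every double-mutant library, against 89.2% of all genes. With a minimum of 10 points 0 were called, against 58.8% of all genes. Of the 39, only Hoxa7, Hoxc4 and Hoxd12 had a double-mutant mean above 10%. The count at 10 points was therefore largely fixed by the starting level. The 5 were Hoxa3, Hoxa5, Hoxa6, Hoxa7 and Hoxd4, and 4 of them are neighbours whose windows share CpGs. Hoxa7 went from 10.97% to 5.81% in means (difference -5.17 points, SE 0.804, adjusted p = 0.0214). Hoxa6, another trunk gene, had 6.67%, 8.68% and 9.51% in the double and 4.11%, 4.45% and 3.43% in the triple mutant (difference -4.30 points, SE 0.894, adjusted p = 0.0484). Hoxd4, a gene of the neck region, had 8.33%, 6.97% and 6.80% and then 3.82%, 5.09% and 2.95% (difference -3.42 points, SE 0.789, adjusted p = 0.032). Leaving out a library of either group left 2 or 3 Hox genes called, and the shares of all genes in those refits are not printed here.

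The other comparisons among the mutants gave no Hox call in the quasi-binomial model. W464A/W465A against W465A called 0 of the 39 and 0 of all genes. An unadjusted p under 0.05 was found in 3 Hox genes, against 916 of all 17820 genes. limma called 1, Hoxb7, and edgeR 0. In 12 Hox genes every W464A/W465A library was nonetheless below every W465A library, against 23.3% of all genes. Hoxb7, a trunk gene, had 0.570%, 1.17% and 0.416% in W464A/W465A and 4.86%, 3.68% and 3.40% in W465A. The triple mutant against W464A/W465A called 0 of the 39 and 0 of all genes, and limma and edgeR called 0 Hox genes. In the quasi-binomial model 1 Hox gene had an unadjusted p under 0.05, against 27 of all 17820 genes. Here Hoxa7, Hoxb7, Hoxc12 and Hoxd12 were higher in all 3 triple-mutant libraries and Hoxc13 was lower (2.68% and 3.38% of all genes).

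Tiles of 1 kb, which do not overlap, show where in the clusters the methylation lay. Of 166 Hox tiles, 65 were below 5% in WT and 15 were at 60% or above, and 30 of the 65 but 4 of the 15 lay within 500 bp of a Hox start. Tiles below 5% in WT had no room for a fall of 10 points. Against WT, 57 Hox tiles were called lower by at least 10 points with W465A (82.8% of all 155660 tiles). The count was 70 for W464A/W465A (84.5%), 51 for W465A/W796A (24.5%) and 67 for the triple mutant (84.6%). The count of 51 became 0 or 30 when WT replicate 2 or 3 was left out. It became 27 or 7 when W465A/W796A replicate 2 or 3 was, and limma called 11. The shares of all tiles in these refits are not printed here. In these contrasts and in W796A against WT, 0 Hox tiles were called higher (0.000642%, 0.000642%, 0.00128%, 0% and, for W796A, 0.00321% of all tiles). W796A also called 0 Hox tiles lower, and 37 of the 166 stood at an unadjusted p under 0.05. The number of all tiles at that threshold is not printed here. With the replicate number as a block, 1 Hox tile, over an exon of Hoxa10 (chr6:52240001-52241000), was called higher in W796A, at 21.2%, 43.1% and 26.8% against 4.52%, 17.7% and 11.8% in WT (adjusted p = 0.0431). In the 15 highest tiles the median level was 70.3% in WT, 77.2% in W796A, 20.5% in W465A and 35.4% in W465A/W796A, and 14 of the 15 had a higher mean in the double mutant than in W465A. In the 65 lowest tiles the medians were 1.72%, 2.78%, 0.880% and 0.726%, and 33 were higher in the double mutant.

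The tile in the Hoxa3 intron had the highest WT level, 76.6%, 73.4% and 95.7%. It fell to 25%, 25% and 13.4% in W465A (difference -60.7 points, adjusted p = 2.12e-05) and to 3.33%, 8.33% and 6.52% in W464A/W465A (difference -75.8 points, adjusted p = 1.26e-06). Its W465A/W796A libraries were at 26.9%, 28.6% and 33.0%, above W465A but not called (adjusted p = 0.178). Within the printed sequence the last CpG, base 78, carried most of that gap, with 11.3% of the pooled reads methylated in W465A and 53.8% in W465A/W796A. The CpG at base 50 had 34.0% and 28.8%.

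The tile in the Hoxb3 intron had 36.4%, 88.1% and 78.8% in WT and stayed low in every mutant with W465A. It was at 7.41%, 6.67% and 19.4% in W465A (difference -56.6 points, adjusted p = 0.00287) and at 21.2%, 12.1% and 5.56% in W465A/W796A (difference -54.8 points, adjusted p = 0.0194). The tile at the Hoxb3 start (chr11:96323001-96324000) behaved alike, with 55%, 73.2% and 100% in WT, 25.6%, 28.1% and 30.0% in W465A and 18.3%, 25% and 26.3% in W465A/W796A (difference from WT of -52.9 points, adjusted p = 0.00957). At both, the double mutant overlapped with W465A or lay below it, and reads were few, with 15 to 71 per library and tile.

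In 2 Hox tiles, both in the Hoxd cluster, the double mutant was called higher than W465A (26.8% of all tiles). The tile in the Hoxd3 and Hoxd4 intron had 53.6%, 70.4% and 71.4% in W465A/W796A and 36.8%, 25% and 31.7% in W465A (difference 34.0 points, adjusted p = 0.0272), with 55.6%, 83.3% and 87.5% in WT. The tile between Hoxd9 and Hoxd8 had 48.1%, 42.9% and 45.8% in W465A/W796A and 21.4%, 12.8% and 11.1% in W465A (difference 30.5 points, adjusted p = 0.045), with 54.5%, 71.1% and 85.2% in WT. In the triple mutant both were lower again, at 31.4% ± 7.95 and 10.02% ± 1.64 (adjusted p = 0.0109 and 0.00437 against the double mutant). Both calls against W465A were lost, 0 remaining, without W465A replicate 2 or 3 or without any single W465A/W796A library, and with limma, and 1 remained without any single library of W464A/W465A or of the triple mutant. Within the Hoxd9 flank sequence the CpGs at bases 11 and 52 had 70.8% and 58.3% of pooled reads methylated in the double mutant, whereas the CpG at base 71 had 8.33%, close to its 7.89% in W465A. Each of these double-mutant values rests on 24 pooled reads. In WT the CpG at base 71 was also lower, at 40%, against 82.9% and 85.7% at bases 11 and 52.

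**Figure D4:**
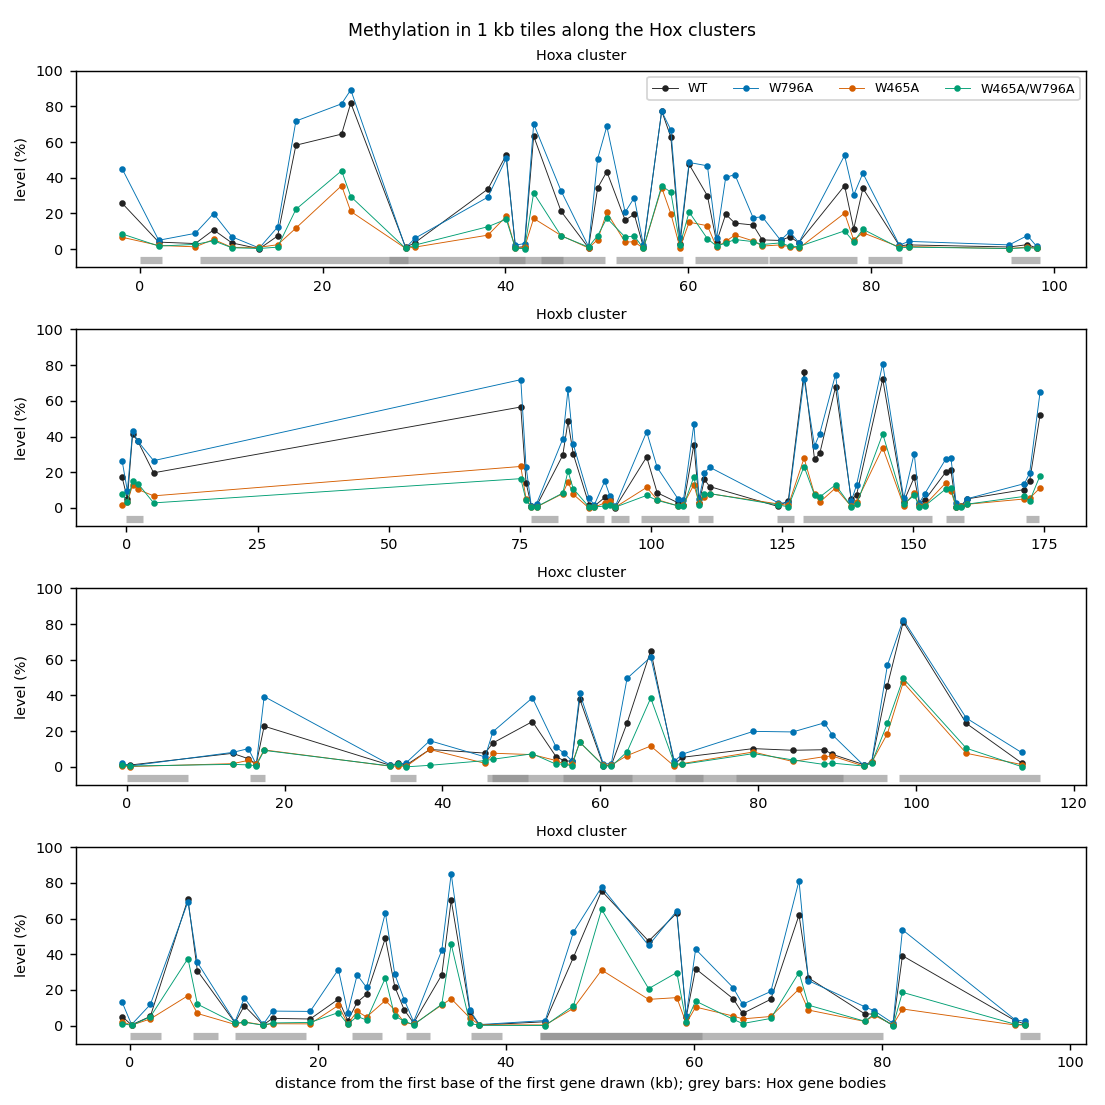
Mean methylation level (y axis, percent of reads) of the 1 kb tiles along the 4 Hox clusters (x axis, distance from the first base of the first gene drawn in kb; lines join neighbouring tiles; grey bars are gene bodies) for WT, W796A, W465A and W465A/W796A. Peaks of 60% or above in WT stand between stretches near 0, and W465A/W796A follows W465A along most of each cluster.

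WT levels varied more with the position of a CpG within a gene than the share of WT kept. CpGs within 500 bp of a Hox start had 4.69% ± 1.42 in WT, exons outside them 5.76% ± 1.86, introns 16.6% ± 4.40 and flanks 18% ± 5.82. In W465A/W796A these kept 39.9%, 38.1%, 43.7% and 35.0% of WT, and in W465A 42.9%, 41.0%, 33.9% and 30.5%. By position along the body axis, paralogue groups 1 to 4 had 10.4% ± 2.93 in WT, groups 5 to 8 had 10.1% ± 2.64 and groups 9 to 13 had 7.26% ± 2.31, and they kept 42.5%, 45.9% and 35.7% in W465A/W796A. W796A stood at 123%, 129% and 138% of WT in the same order, with libraries that overlapped WT in each group of paralogues but stood above the same-numbered WT library in every pair.

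Starts differed widely among the genes. The Hoxa5 promoter printed above had 1.44% of pooled reads methylated in WT, 4.27% in W796A, 1.18% in W465A and 0.375% in W465A/W796A. Within 500 bp of its start Hoxd13 had 0.27% ± 0.04 in WT over 54 CpGs, and Hoxb9 1.12% ± 0.39 over 57. Hoxc4 had 79.0% ± 10.8 over 5 CpGs and Hoxb3 76.1% ± 22.6 over 4, so the GENCODE starts of these genes were methylated. For Hoxc4 this is the first base of the GENCODE gene, 103018934. The sequence before its RefSeq start lies further downstream (chr15:103034145-103034394) and had 0 usable CpGs, so its methylation was not measured. At its GENCODE start Hoxc4 kept 49.3% of reads methylated in W465A/W796A and 44.5% in W465A.

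Other gene lists were counted in the same fits for comparison, without a test of the lists. A gene counted as higher in W465A/W796A than in W465A was called at an adjusted p under 0.05. Of 9 Hox cofactor genes of the Pbx, Meis and Pknox families, 7 were higher in W465A/W796A than in W465A (median difference 6.83 points), as were 8 of 14 Polycomb genes (4.11 points), 8 of 9 Trithorax genes (13.05 points), 5 of 10 retinoic acid pathway genes (6.41 points) and 6 of 9 genes that flank the clusters (11.5 points). Of all genes 61.6% were called higher, and of the 39 Hox genes 0. The median over the 39 Hox genes was 0.0762 points and over all genes 9.99 points. Among 6 Cdx and ParaHox genes, the closest relatives of the Hox genes, 1 was higher (0.985 points). Of 81 Fox, Pax, Lhx, Gata and Nkx genes, 24 were higher (1.66 points), and these kept a median of 59.4% of WT in the double mutant, between Hox genes at 41.8% and other genes at 72.5%. In the lowest WT class, up to 5%, the 23 genes of these families kept 48.5%. Higher levels in W796A were not particular to Hox genes. In W796A these families had a median of 112% of WT, Hox genes 135% and other genes 99.4%. At WT levels up to 5% these medians were 158%, 166% and 106%. All W796A libraries were above all WT libraries in 11 of the 81 (13.6%), against 17.9% of Hox genes and 1.16% of all genes.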

How the data were processed

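The assay was eRRBS in 18 libraries. Per the file headers, the authors deposited 2 counts for every CpG and library, of methylated and of all reads; they are not normalized. Per the submitters' processing notes, cutadapt 1.2.1, Bismark 0.18.1, Bowtie 1.2 and GRCm38 were used; trimming settings and duplicate removal are not given in the sources used here. CpGs with at least 5 reads in all libraries were kept. Counts were summed per gene window (GENCODE M21, 2 kb flanks, at least 3 CpGs) or 1 kb tile. A quasi-binomial logistic model with overdispersion squeezed across all features gave F tests, adjusted (Benjamini-Hochberg) over 17820 genes or 155660 tiles; calls needed an adjusted p under 0.05 and, for tiles, 10 points between levels from pooled reads. Fits of all groups shared 1 spread. limma 3.58.1 (log2 ratios of counts plus 0.5) and edgeR 4.0.16 were alternatives; Python 3.11.15 and R 4.3.3 were used. The script was tested on simulated data. SDs and SEs come from library levels; counting intervals were not used. Named genes were the highest and lowest WT gene per cluster and up to 3 called genes or 2 tiles per contrast with the largest differences and no overlap. The members and lists were chosen with earlier results of these data known. Replicate numbers were checked as pairs: deviations of same-numbered libraries correlated in WT and W796A (0.234 to 0.546 across genes), the only pair of groups in which every correlation exceeded 0.1. Promoter sequences (RefSeq) matched 22 of 39 genes. 1 Hox gene enters the counts and sums over the clusters but is not reported or drawn on its own here.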

Additional observations from a re-analysis of the deposited data

Results flagged for a closer look

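In Hoxc6 the effect of W796A differed between backgrounds: the W796A effect in W465A cells minus that in WT cells was -12.4 percentage points (SE 3.51). The quasi-binomial model, which tests the difference in log odds and not in points, gave an adjusted p = 0.0391. All W796A libraries were above all WT libraries, and the W465A/W796A libraries overlapped with those of W465A. The window holds 31 usable CpGs with 261 to 924 reads per library.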

How the results depend on the processing

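The 39 of 39 Hox genes below the other-gene median in W465A/W796A stayed 39 with each library left out in turn; the counts of means above WT in W796A were 28 to 36 and above W465A in W465A/W796A 16 to 24. The versions of these 3 counts without single libraries or at 10 reads, the counts of genes by pair, and the block within WT and W796A, were added after seeing the data. Where a value below moved, the cause was not tested. Higher read minimums leave fewer CpGs and genes. The shares of all genes or tiles called are not printed beside the counts below. A moved count therefore does not tell Hox genes or tiles apart from the rest.

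At 10 reads per CpG, Hox calls were 18 for W465A/W796A against WT, 0 for the triple mutant against W465A/W796A and 0 for the departure from additivity. At 20 reads, 10 Hox genes remained, with 3, 3, 0 and 3 calls against WT for W465A, W464A/W465A, W465A/W796A and the triple mutant, and 0 for the triple mutant against W465A/W796A and the departure. Without flanks there were 3 calls for the triple mutant against W465A/W796A and 2 departures, and with 5 kb flanks 2 for W465A/W796A against W465A and 0 departures. A minimum of 10 points in pooled reads left 8, 11, 6 and 10 for W465A, W464A/W465A, W465A/W796A and the triple mutant against WT, and 0 for the triple mutant against W465A/W796A. Fitting the compared groups alone gave 9 for that last contrast and, with the 4 groups of the factorial, 0 departures; no squeezing gave 2. With the global offset there were 8, 2, 4, 7 and 5 calls for W796A, W465A, W464A/W465A, W465A/W796A and the triple mutant against WT, 0 for the triple mutant against W465A/W796A and 13 departures. limma gave 18 for W465A/W796A against WT, 1 for W464A/W465A against W465A and 0 departures; edgeR gave 1 for W465A/W796A against W465A, 8 for the triple mutant against W465A/W796A and 2 departures.

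With the replicate number as a block, 2 Hox genes (Hoxc6 and Hoxc12) departed from additivity and 1 tile was higher in W796A than in WT; the block moved no other count by over 1.5 times. Only WT and W796A met the rule for pairs, that every correlation exceed 0.1. Same-numbered libraries of W465A and W465A/W796A came close to it, with correlations of 0.0904 to 0.301. A block within the 6 libraries of WT and W796A called 0 Hox genes.

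Leaving out each library gave ranges of 0 to 1 Hox genes for W796A, 21 to 36 for W465A, 28 to 38 for W464A/W465A, 0 to 35 for W465A/W796A and 31 to 38 for the triple mutant against WT, 0 to 1 for W465A/W796A against W465A, 0 for W464A/W465A against W465A and for the triple mutant against W464A/W465A, 2 to 6 for the triple mutant against W465A/W796A and 0 to 3 departures. For tiles against WT the ranges were 0 to 8, 45 to 67, 55 to 72, 0 to 64 and 53 to 69 in the same order, and 0 to 3 for W465A/W796A against W465A.

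For tiles, 10 reads left 17, 19, 18 and 20 calls for W465A, W464A/W465A, W465A/W796A and the triple mutant against WT, and 0 for W465A/W796A against W465A. Dropping the 10 points gave 86, 109 and 104 for W465A, W464A/W465A and the triple mutant. limma gave 11 for W465A/W796A against WT and 0 against W465A.

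The level over all Hox windows was sensitive to the CpGs kept. At 10 reads the differences from WT were -2.97, -3.42, -2.86 and -3.18 points for W465A, W464A/W465A, W465A/W796A and the triple mutant, and -0.317 for the triple mutant against W465A/W796A. At 20 reads they were -0.755, -0.771, -0.782, -0.909 and -0.128, with -0.0157 for W464A/W465A against W465A, and 2 small differences turned: W465A/W796A against W465A was -0.0268 (0.337 with 5 reads) and the triple mutant against W464A/W465A was -0.139 (0.268 with 5 reads). Averaging CpGs once each gave -8.42 and -8.07 for W464A/W465A and the triple mutant against WT, -1.41 for W464A/W465A against W465A and -1.56 for the triple mutant against W465A/W796A. CpGs with 5 reads in the library itself gave -7.86, -9.16, -7.03 and -8.79 against WT, 0.829 for W465A/W796A against W465A, -1.31 for W464A/W465A against W465A and -1.76 for the triple mutant against W465A/W796A. Leave-one-out ranges of these differences were 1.29 to 3.93 for W796A, -6.86 to -4.57 for W465A, -7.74 to -5.44 for W464A/W465A, -6.53 to -4.23 for W465A/W796A, -7.47 to -5.17 for the triple mutant and -3.59 to -0.949 for the departure.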
